A study of Nasonia vitripennis with 23 samples.

Results

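Gustatory receptors are the membrane proteins with which insects taste. They form ion channels in the dendrites of taste neurons, open when a sugar, a bitter compound or another ligand binds, and belong to the same superfamily as the odorant receptors of the antenna. In Nasonia vitripennis, a parasitoid wasp that lays its eggs on fly pupae, Gr2 has been grouped by sequence with the sugar receptors of other insects and Gr3 with the fructose receptor Gr43a of Drosophila melanogaster. The carbon dioxide receptors of flies have no counterpart in wasps, bees and ants, and the ligands of most of the other Nasonia receptors are not known. The 46 genes described here were every row of the count table whose symbol is Gr followed by a number, out of 14131 rows. No row carried the symbol Gr1, a sugar receptor relative, and it was not analysed here. The sequences of these receptors were not used here.

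The counts came from RNA-seq of poly(A) RNA from pools of 12 heads of AsymC females, a wild-type strain that had been cured of Wolbachia. Before the heads were taken, each of these females had laid eggs for 3 h either alone (single-foundress, 8 libraries), with 4 co-foundresses (five-foundress, 7 libraries) or with 9 (10-foundress, 8 libraries). The co-foundresses belonged to the red-eyed STDR strain and were not sequenced, and the study asked whether the number of females that share a patch of hosts changes expression in the head. The pool was the unit of replication, every female was of 1 strain, and the labels do not give the day on which a pool was set up. The taste organs of the legs and of the ovipositor were not sampled, and in whole heads fewer cells of a type cannot be told apart from less RNA per cell.

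Single-foundress replicate 2, which the study removed as an outlier, was left out of every value below unless it is named, so that 7, 7 and 8 libraries with 25194329 to 69696501 counted reads each were compared. In that library 40 receptors had a read and their summed level was 17.2 CPM (counts per 1000000 counted reads), just below the 17.5 to 30.7 CPM of the other 22 when all were normalized together. Its level lay within the range of the others for 45 receptors and above it for 0. Gr11 and Gr52, without a read in any library, are among the 45. A receptor with no read in some other library could not lie below the range, and the share over all genes was not computed. Gr34 was the exception, with 2 counts or 0.0364 CPM against 0.0739 to 0.345 CPM. Transcripts that mark the sense organs of the head were found in every library. Or1, the co-receptor Orco with which the other odorant receptors form their channel, lay between 14.3 and 271 CPM, and Lop1, the long wavelength opsin of the eye, between 5579 and 12025 CPM.

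Few of the gustatory receptors gave many reads. A read was found for 44 of the 46 in the 22 libraries, and single libraries had reads on 28 to 42 of them. The mean level was at least 1 CPM for 4 receptors (8.70%), between 0.1 and 1 CPM for 21, and below 0.1 CPM for 19. Of the 214 odorant receptor rows 125 (58.4%) were at 1 CPM or more, as were 10167 of all 14131 genes (71.9%). The median of the mean levels was 0.109 CPM over the gustatory receptors, 1.28 CPM over the odorant receptors and 13.2 CPM over all genes. CPM is not divided by transcript length, so these levels, and the order of genes by them, are those of reads and not of transcripts.

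The 2 receptors without a read were Gr11 and Gr52. They had 0 reads in all 22 libraries and also in the library that was left out. A count of 0 over the 22 libraries allows a level of up to 0.00360 CPM (3 counts), a limit that covers counting error only. At the other end, 20 receptors had a read in every one of the 22 libraries, against 175 of the 214 odorant receptors, and 14 had a mean of at least 10 counts per library, against 187 of the 214.

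Gr3, Gr6 and Gr2 held 63.9% of the 18844 reads that fell on the family. Gr3, the relative of the fly fructose receptor, had 170 to 520 counts per library and a level of 8.24 CPM ± 1.27 (SD, n = 22), from 5.66 to 11.2 CPM. Gr6 had 74 to 183 counts and 3.62 CPM ± 1.32 (SD, n = 22), from 1.60 to 6.06 CPM. Gr2, the relative of the sugar receptors, had 49 to 201 counts and 2.82 CPM ± 0.676 (SD, n = 22), from 1.81 to 4.67 CPM. In none of these 3 did the highest library reach 4 times the lowest, and the coefficient of variation between pools was 15.4% for Gr3, 36.5% for Gr6 and 23.9% for Gr2. The variance between pools was 7.36 times that of counting alone for Gr3, 18.0 times for Gr6 and 5.93 times for Gr2.

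Gr49 was the fourth by reads with 1.13 CPM ± 0.364 (SD, n = 22) and between 9 and 87 counts. It was followed by Gr58 with 0.963 CPM ± 0.308, Gr25 with 0.621 CPM ± 0.236, Gr28 with 0.428 CPM ± 0.173 and Gr45 with 0.415 CPM ± 0.177 (SD, n = 22 each). Gr5 with 0.371 CPM ± 0.129 and Gr7 with 0.356 CPM ± 0.178 (SD, n = 22 each) closed the first 10. For these 7 receptors only their place in the family is given here, with no ligand. Neighbours in this order from Gr28 to Gr7 differed by less than the SD of either. Below them came Gr10, Gr47, Gr39 and Gr42, at 0.284 to 0.301 CPM, which were named after their values had been seen. The plot of the level of each receptor in every library shows the 3 receptors with the most reads at the top. Their points are not fully apart from the rest, since Gr49 reached 1.76 CPM and the lowest Gr6 level was 1.60 CPM. Below is a long tail in which libraries with and without a read alternate.

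**Figure D1:**
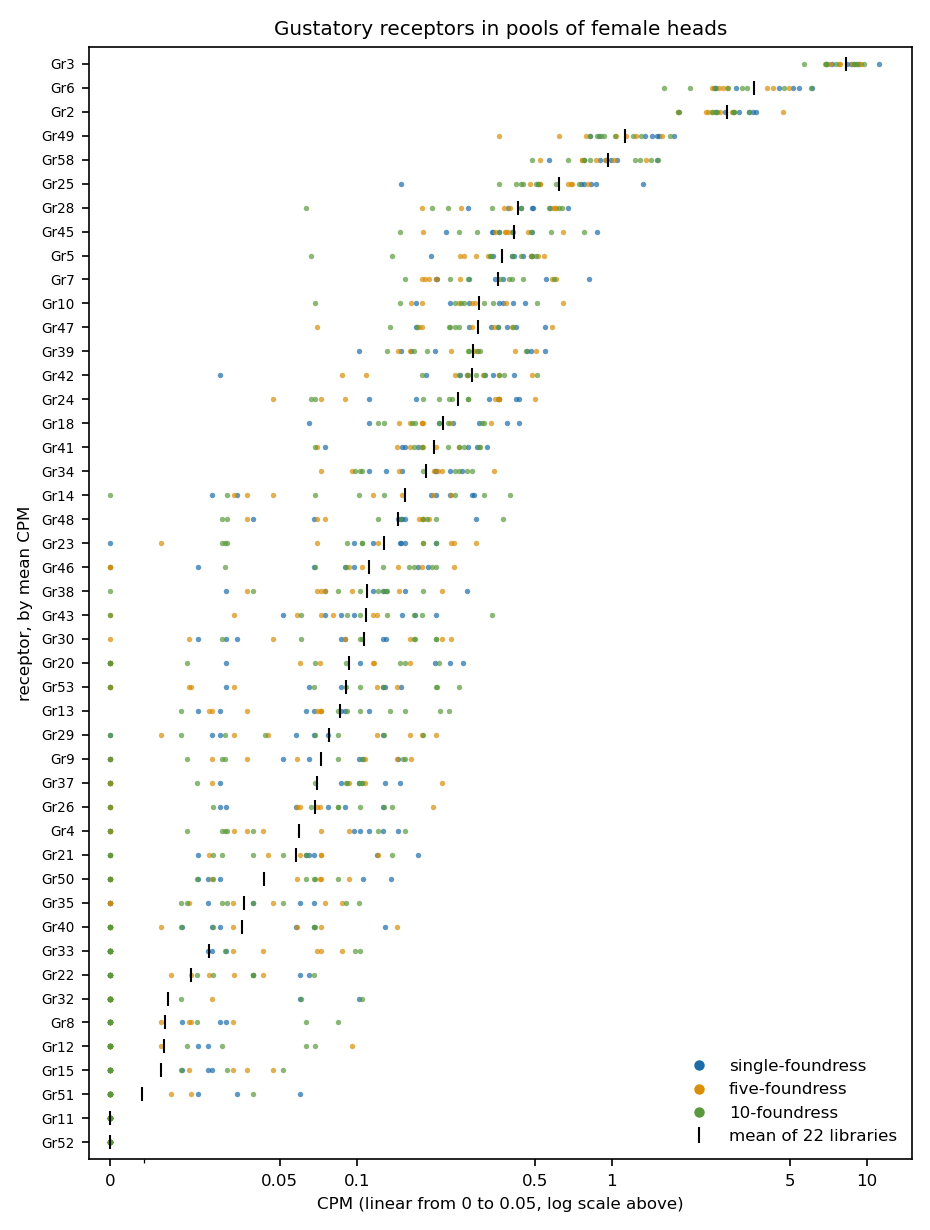
Level of each of the 46 gustatory receptors in each of 22 libraries, in CPM on an axis that is linear from 0 to 0.05 and logarithmic above. Points are libraries coloured by foundress number and black bars are means. Gr3, Gr6 and Gr2 lie above 1.5 CPM in every library, while Gr11 and Gr52 are at 0 throughout.

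The 3 receptors with the most reads had genes that stood alone in the genome. In the RefSeq gene table of assembly Nvit_psr_1.1, in which all 46 symbols were found, 39 receptors lay in 7 runs of neighbours with no other gene between them, and 7 stood alone (Gr2, Gr3, Gr4, Gr5, Gr6, Gr43 and Gr58). Those 7 held 70.6% of the reads of the family, of which Gr3, Gr6 and Gr2 gave nearly all. Standing alone did not go with many reads in each case, since Gr4 had 0.0597 CPM and Gr43 0.109 CPM. The largest run, from Gr18 to Gr40, had 19 members and 12.8% of the reads. In it 10 members were below 0.1 CPM and the highest was Gr25. In the run from Gr48 to Gr53, with 6 members, Gr49 had 1.13 CPM while Gr52 had no read. In the same table Gr10 lies within the span of Gr7, Gr20 overlaps Gr21, and Gr26 and Gr53 each overlap a pseudogene of the family. The counts of these 6 are therefore uncertain, since it is not stated that strand was used in counting, as are those of any receptors with near-identical copies. The counts were made on another assembly, so no coordinates are given.

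Odorant receptors rose and fell together from pool to pool, and gustatory receptors did so to a much smaller degree. Each receptor with a mean of at least 10 counts was correlated with the summed CPM of the other such receptors of its own family, on a log2(CPM + 0.1) scale over the 22 libraries. The median Pearson r was 0.22 over the 14 gustatory receptors (from -0.0897 to 0.70) and 0.88 over the 187 odorant receptors (from -0.52 to 0.98). An r above 0.5 was found for 2 of the 14 gustatory receptors, Gr3 with 0.70 and Gr10 with 0.56, and for 177 of the 187 odorant receptors. Gr10 had only 2 to 22 counts per library. It lies within the span of Gr7, which is part of the sum it was set against, so its r is uncertain. The r also depended on the sum. Against the rest of all 46 receptors, Gr3, Gr6, Gr2 and Gr49 had an r of 0.57, 0.19, 0.0963 and 0.40. Against the rest of the 14 they had 0.70, 0.38, -0.0529 and 0.23. These values are descriptions, since the receptors of 1 library share its RNA, its depth and its normalization.

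The 2 families also differed when single receptors with like numbers of reads were compared. The sums they were set against were not alike. The odorant receptor sum was of the rest of 187 genes. The gustatory receptor sum was of the rest of 14. Gr3, Gr6 and Gr2 held 63.9% of the reads of all 46 gustatory receptors, and a larger share of those of the 14. How much of the difference comes from this was not tested. Between 10 and 20 counts per library the median r was 0.17 over 8 gustatory receptors and 0.77 over 20 odorant receptors. Between 20 and 100 counts it was 0.23 over 3 and 0.88 over 113, and between 100 and 1000 counts 0.38 over 3 and 0.93 over 53. The coefficient of variation between pools lay between 15.4% and 49.9% for the 14 gustatory receptors, with a median of 39.2%, while the median was 52.1% for the 187 odorant receptors. Of these 14 receptors, Gr3 varied the least and Gr7 the most.

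**Figure D2:**
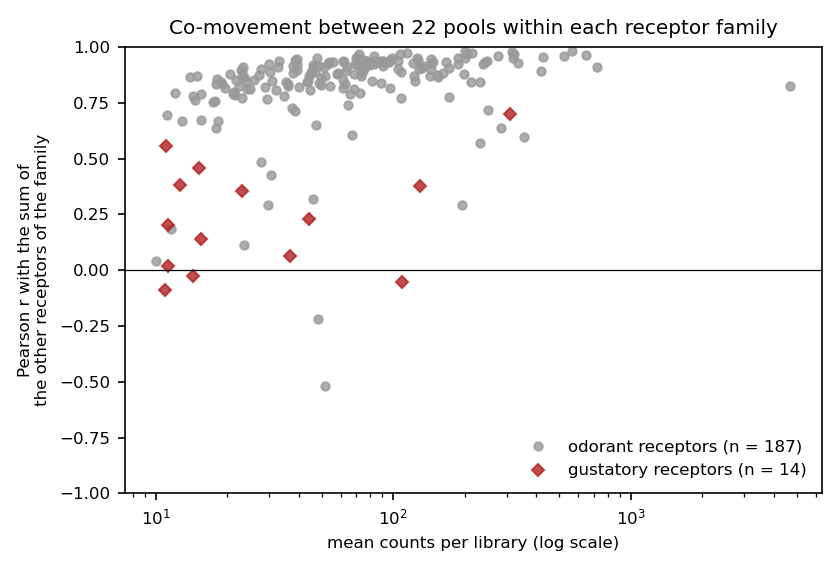
Pearson r of each receptor with the summed CPM of the other receptors of its family over 22 libraries, against its mean counts per library on a log scale. Only receptors with a mean of at least 10 counts are shown and summed. Grey circles are the 187 odorant receptors, with a median of 0.88, and red diamonds the 14 gustatory receptors, with a median of 0.22.

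The sums of the families differed in the same way. The summed level of all 46 gustatory receptors lay between 17.7 and 30.3 CPM, with a median of 23.0 CPM, so that the highest library was 1.71 times the lowest. The summed level of the odorant receptors lay between 156.5 and 969 CPM, with a median of 565 CPM, and the highest was 6.19 times the lowest. Single-foundress replicate 8 had the lowest odorant receptor sum and the lowest Or1 level, and its gustatory receptor sum was 25.2 CPM, above the median. 10-foundress replicate 18 had the highest of both, and its gustatory receptor sum was 20.2 CPM, below the median. The libraries with the highest gustatory receptor sums, single-foundress replicate 1 with 30.3 CPM and 10-foundress replicate 17 with 26.8 CPM, had odorant receptor sums of 963 and 945 CPM, among the 4 highest. Over the receptors with at least 10 counts, the r between the sums of the 2 families was 0.0666, and the median r of the 14 gustatory receptors with the odorant receptor sum was 0.14, with 9 of the 14 above 0.

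Single receptors departed from this median in either direction. When the 14 were each set against the summed CPM of the 187 odorant receptors, a choice made after the data had been seen, 2 relations passed an adjusted p of 0.05. Gr42, with only 1 to 21 counts per library, rose with the odorant receptors (r = 0.78, rho = 0.66, n = 22, permutation p = 4e-05 for r and 0.00118 for rho, adjusted p over 14 relations = 0.00056 for r and 0.0165 for rho). Its r was 0.60 without the 2 libraries farthest from the median of the odorant receptor sum, 0.80 and 0.79 within the single- and five-foundress groups, and 0.58 within the 10-foundress group.

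Gr2, the relative of the sugar receptors, also rose with the odorant receptor sum (r = 0.56, rho = 0.58, n = 22, permutation p = 0.0063 for r and 0.00517 for rho, adjusted p over 14 relations = 0.0441 for r and 0.0362 for rho). Its r was 0.55 without the 2 farthest libraries, 0.74 and 0.78 within the single- and five-foundress groups, and 0.0766 within the 10-foundress group. Leaving out each library in turn gave an r of 0.50 to 0.68. With the log of the total counts the r was 0.34 for Gr2 and 0.63 for the odorant receptor Or1. The part of depth in the relations of Gr42 and Gr2 was not tested. The relation of Gr49 did not pass (r = 0.46, rho = 0.52, permutation p = 0.0335 and 0.0137, adjusted p = 0.156 and 0.0639). Gr28 and Gr6 had an r below 0, of -0.39 and -0.35, and neither passed (adjusted p by permutation = 0.257 for each).

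Against Or1 alone, 0 of the 8 gustatory receptors with the most reads passed an adjusted p of 0.05 by permutation. At an unadjusted p below 0.05 there were 2, Gr28 with r = -0.47 (rho = -0.49, permutation p = 0.0286, adjusted p over 8 relations = 0.146) and Gr6 with r = -0.45 (rho = -0.34, permutation p = 0.0364, adjusted p = 0.146). Gr2 had r = 0.40 and rho = 0.35 (permutation p = 0.0655, adjusted p = 0.175) and Gr3 had r = -0.0664 and rho = 0.0401 (permutation p = 0.771, adjusted p = 0.771).

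Gr3 and Gr6 rose with the opsin of the eye. In 48 relations of the 8 receptors with Lop1, with 4 other lists of head transcripts and with the total counts, chosen after the data had been seen, 5 passed an adjusted p of 0.05. The 4 lists were odorant binding proteins, nicotinic acetylcholine receptor subunits, cuticular proteins and the 3 rows with a symbol beginning with Hex. Gr3 rose with Lop1 (r = 0.78, rho = 0.78, n = 22, permutation p = 3e-05 and 8e-05, adjusted p over 48 relations = 0.00072 and 0.00192), with an r of 0.69 without the 2 farthest libraries. Its r was 0.82, 0.43 and 0.94 within the single-, five- and 10-foundress groups. The level of Lop1 varied 2.16-fold between libraries, and its r with the log of the total counts was -0.50.

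Gr6 rose with Lop1 as well (r = 0.80, rho = 0.84, n = 22, permutation p = 2e-05 and 1e-05, the latter the smallest that the permutations can give, adjusted p over 48 relations = 0.00072 and 0.00048), with an r of 0.83 without the 2 farthest libraries. Its r was 0.85, 0.60 and 0.90 within the single-, five- and 10-foundress groups. Gr6 fell with the total counts of the library (r = -0.58, rho = -0.58, permutation p = 0.00412 and 0.00513, adjusted p = 0.0462 and 0.0616). It rose with the summed level of the 3 rows with a symbol beginning with Hex (r = 0.61, rho = 0.55, permutation p = 0.00264 and 0.00855, adjusted p = 0.0422 and 0.0770). For both of these r passed and rho did not. The prefix was chosen for hexamerins, storage proteins of the fat body, but what the 3 rows encode was not checked. The rise of Gr6 with the summed nicotinic acetylcholine receptor subunits did not pass (r = 0.57, rho = 0.55, permutation p = 0.00661 and 0.00963, adjusted p = 0.0529 and 0.0770). The part of depth, or of the share of eye tissue, in these relations was not tested.

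Gr2 went the other way. It fell as the sum of the 3 Hex rows rose (r = -0.58, rho = -0.64, n = 22, permutation p = 0.00481 and 0.00192, adjusted p over 48 relations = 0.0462 and 0.0307) and its r with Lop1 was -0.35 (rho = -0.30, permutation p = 0.112 and 0.179, adjusted p = 0.425 and 0.509). The summed level of these 3 rows lay between 9.58 and 25.4 CPM. The other 5 of the 8 receptors, Gr49, Gr58, Gr25, Gr28 and Gr45, passed in none of these 48 relations.

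**Figure D3:**
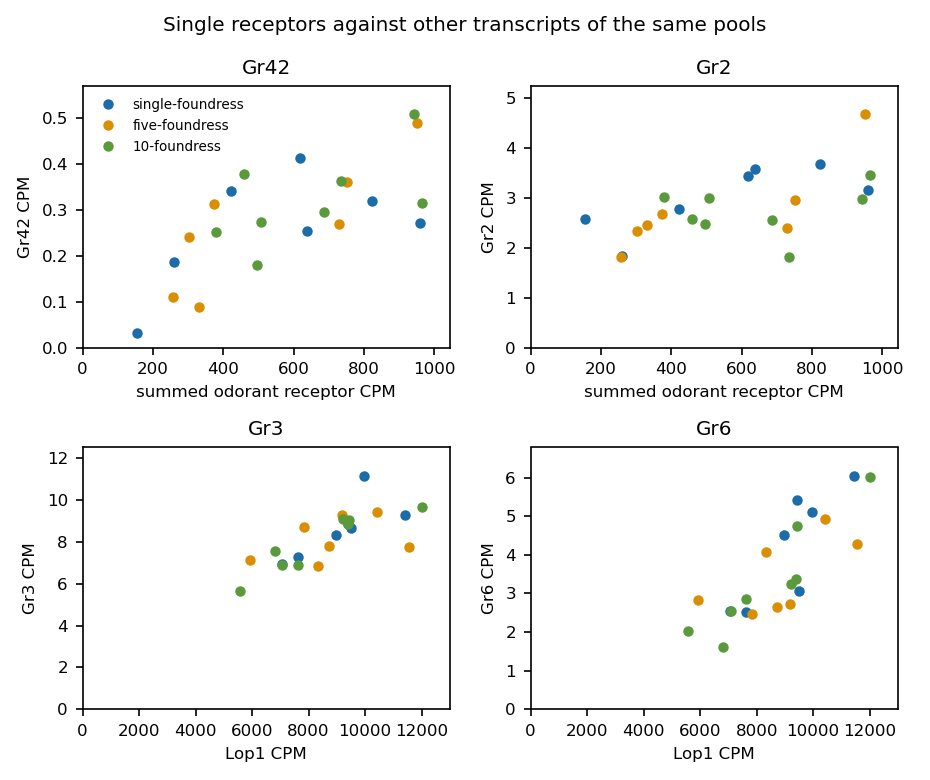
Gr42 and Gr2 against the summed CPM of 187 odorant receptors (top) and Gr3 and Gr6 against the CPM of Lop1 (bottom), with 1 point per library coloured by foundress number. The Pearson r on the log2 scale is 0.78 for Gr42, 0.56 for Gr2, 0.78 for Gr3 and 0.80 for Gr6, and the lowest Gr42 value is a single-foundress library with 1 count.

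Among the 28 pairs of these 8 receptors, 2 passed an adjusted p of 0.05, again in relations chosen after the data had been seen. Gr3 rose with Gr6 (r = 0.63, rho = 0.64, n = 22, permutation p = 0.00142 and 0.00168, adjusted p over 28 pairs = 0.0308 and 0.0235), with an r of 0.77, -0.0294 and 0.75 within the single-, five- and 10-foundress groups and 0.65 without the 2 farthest libraries. Gr2 rose with Gr49 (r = 0.62, rho = 0.71, n = 22, permutation p = 0.0022 and 0.00031, adjusted p = 0.0308 and 0.00868), with an r of 0.80, 0.52 and 0.63 within the groups and 0.61 without the 2 farthest libraries. Gr6 and Gr2 had an r of -0.43 (rho = -0.30, permutation p = 0.0473 and 0.173, adjusted p = 0.237 and 0.560), which did not pass.

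The ranges of the 3 foundress number groups overlapped for each of the 44 receptors with a read. For a receptor without a read in some library of every group, such as Gr20, Gr9 or Gr4, the ranges could not be separate. The share of all genes with overlapping ranges was not computed, so the overlap does not set the family apart from other genes. Gr3, the relative of the fructose receptor, had a lowest, median and highest level of 6.94, 8.68 and 11.2 CPM in the single-foundress group (n = 7). They were 6.85, 7.80 and 9.44 CPM in the five-foundress group (n = 7) and 5.66, 8.22 and 9.69 CPM in the 10-foundress group (n = 8). The 3 ranges overlapped, with the highest library in the single-foundress group and the lowest in the 10-foundress group. The means were 8.65 CPM ± 1.40, 8.15 CPM ± 1.02 and 7.97 CPM ± 1.41 (SD).

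Gr6 had 2.52, 4.51 and 6.06 CPM in the single-foundress group, 2.47, 2.83 and 4.92 CPM in the five-foundress group and 1.60, 3.05 and 6.03 CPM in the 10-foundress group (lowest, median and highest). Its mean was 4.18 CPM ± 1.45, 3.42 CPM ± 0.982 and 3.30 CPM ± 1.46 (SD), so that the means differed by less than the SD of any group. Gr2, the sugar receptor relative, had 1.83, 3.16 and 3.67 CPM in the single-foundress group, 1.82, 2.46 and 4.67 CPM in the five-foundress group and 1.81, 2.78 and 3.45 CPM in the 10-foundress group. Its lowest level was almost the same in each group, and its mean was 3.00 CPM ± 0.657, 2.76 CPM ± 0.913 and 2.73 CPM ± 0.494 (SD).

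Gr49 had a mean of 1.33 CPM ± 0.345, 0.966 CPM ± 0.407 and 1.10 CPM ± 0.294 (SD) in the single-, five- and 10-foundress groups. Gr25 had 0.746 CPM ± 0.357, 0.628 CPM ± 0.120 and 0.505 CPM ± 0.121 (SD). The lowest and highest Gr25 levels, 0.150 and 1.32 CPM, were both found in the single-foundress group. Gr58 had means of 0.962, 0.891 and 1.03 CPM, Gr28 of 0.475, 0.429 and 0.386 CPM, and Gr45 of 0.433, 0.400 and 0.413 CPM in the same order. Gr5 had 0.396, 0.382 and 0.339 CPM and Gr7 had 0.396, 0.315 and 0.358 CPM. The plot of the 10 receptors by foundress number shows that the ranges of the groups overlap in each. The step in mean from 1 to 5 foundresses for Gr49 and the steps from 5 to 10 and from 1 to 10 for Gr25 were larger than the SD of at least 1 of the groups compared.

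**Figure D4:**
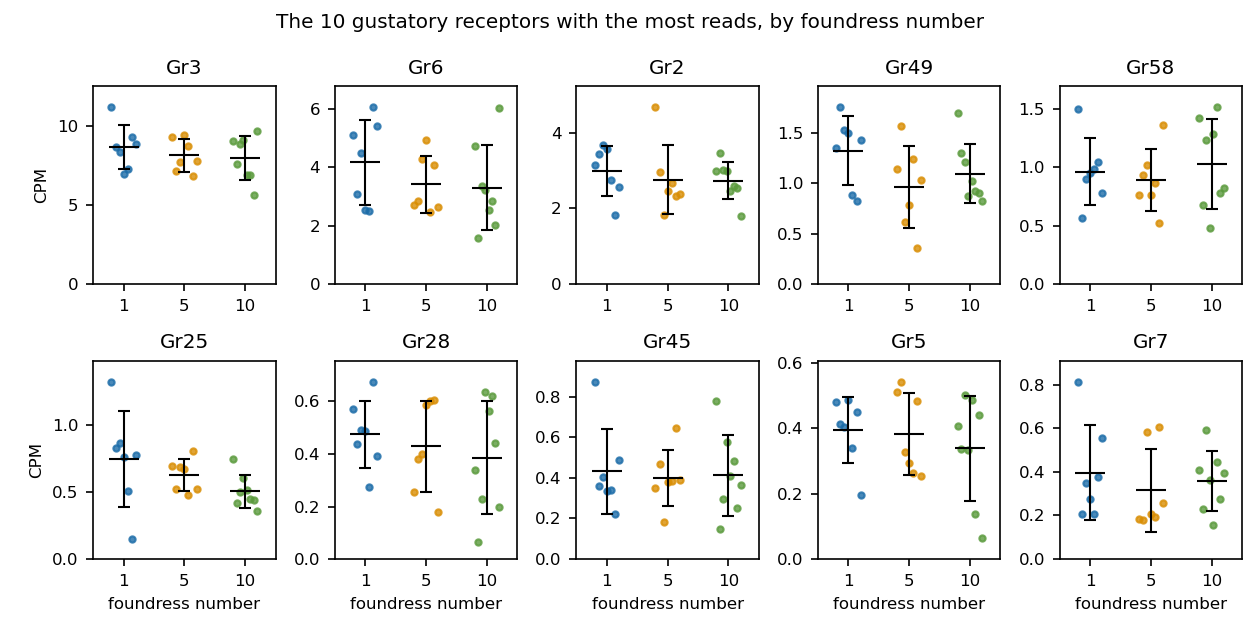
Level in CPM of the 10 gustatory receptors with the most reads by foundress number (1, 5 or 10), with 1 point per library, horizontal bars for means and error bars for the SD (n = 7, 7 and 8). The groups overlap in every panel, as for Gr3 with means of 8.65, 8.15 and 7.97 CPM.

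The tests gave the same picture for the whole family. All 44 receptors with a read were tested together with the other genes, 13599 in all, by edgeR's quasi-likelihood test with Benjamini-Hochberg adjustment. In the single- versus five-foundress comparison 0 receptors passed an adjusted p of 0.05, where 0% of all genes did, and 0 had an unadjusted p below 0.05, against 1.76% of all genes. In the five- versus 10-foundress comparison 0 passed the adjusted p (0% of all genes) and 1 receptor the unadjusted p (1.81% of all genes). In the single- versus 10-foundress comparison 0 passed the adjusted p (0% of all genes) and 2 the unadjusted p (3.18% of all genes). In the overall test of foundress number 0 passed the adjusted p (0% of all genes) and 1 the unadjusted p (1.96% of all genes). The smallest adjusted p of a receptor in the 4 tests was 1.00, 1.00, 0.952 and 0.994. With DESeq2 and with limma-voom 0 receptors passed the adjusted p in any of the 4 tests either, where 0% of all genes passed, or 0.0221% (3 genes) with limma-voom in the single- versus 10-foundress comparison. Below the unadjusted p were 0, 1, 1 and 0 receptors with DESeq2, against 1.64%, 1.5%, 3.19% and 1.91% of all genes. With limma-voom there were 1, 2, 2 and 2 receptors, against 2.81%, 6.15%, 14.1% and 8.02% of all genes.

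The receptor at the unadjusted p in 3 of these tests was Gr13, which had only 1 to 7 counts per library. It had a mean of 0.0684 CPM ± 0.0312 in the single-foundress group (1 to 3 counts), 0.0552 CPM ± 0.0209 in the five-foundress group (1 to 4 counts) and 0.129 CPM ± 0.0693 (SD, 1 to 7 counts) in the 10-foundress group. The log2 fold change was 1.11 (SE 0.36, adjusted p = 1.00 by edgeR) from 5 to 10 foundresses and 0.84 (SE 0.36, adjusted p = 0.952) from 1 to 10. In the overall test its adjusted p was 0.994. The 3 ranges overlapped, from 0.0258 to 0.112 CPM, from 0.0293 to 0.0728 CPM and from 0.0211 to 0.231 CPM. With the left-out library, which had 9 counts of Gr13 or 0.164 CPM, the fold change from 1 to 10 foundresses was 0.52 (adjusted p = 1.00 by edgeR).

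Gr25 was the other receptor at an unadjusted p below 0.05, with a log2 fold change of -0.59 (SE 0.26, adjusted p = 0.952 by edgeR) from 1 to 10 foundresses. Its lowest, median and highest level was 0.150, 0.781 and 1.32 CPM in the single-foundress group and 0.363, 0.475 and 0.746 CPM in the 10-foundress group, so that the 10-foundress range lay within that of the single-foundress group. In the single- versus five-foundress comparison the smallest p of a receptor was that of Gr49, with a log2 fold change of -0.42 (SE 0.24, adjusted p = 1.00 by edgeR).

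For the 3 receptors with the most reads the fold changes were small and those of Gr3 were the best determined. The log2 fold change of Gr3 was -0.09 from 1 to 5 foundresses, -0.03 from 5 to 10 and -0.12 from 1 to 10 (SE 0.13 each). For Gr6 it was -0.29, -0.05 and -0.35 (SE 0.27, 0.26 and 0.26) and for Gr2 -0.12, -0.02 and -0.14 (SE 0.19, 0.18 and 0.18), by edgeR. None of the 9 values was more than 1.5 times its SE, which restates the test, since the SE was derived from its F statistic. A fold change that does not pass the test is not shown to be absent.

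Over the 44 receptors tested, 14 had a higher and 30 a lower fitted level with 5 than with 1 foundress, with a median log2 fold change of -0.12, while 6903 of all genes were higher and 6581 lower. From 5 to 10 foundresses 22 were higher and 22 lower, with a median of 0.01, while 7229 of all genes were higher and 6292 lower. From 1 to 10 foundresses 20 were higher and 24 lower, with a median of -0.11, while 7052 of all genes were higher and 6473 lower. Without each library in turn these medians were -0.21 to -0.08, -0.04 to 0.09 and -0.17 to -0.0063, so that the second had either sign. The numbers from 1 to 5 foundresses were 20 higher and 24 lower with the left-out library added, and 9 and 35 with limma-voom. Among the 14 receptors with at least 10 counts the numbers higher and lower were 1 and 13, 4 and 10, and 2 and 12, with medians of -0.12, -0.04 and -0.23, and the SE of 1 receptor was 0.13 to 0.37. The median over all genes was 0.00377, 0.0115 and 0.00986. Over the 211 odorant receptors tested it was -0.12, 0.26 and 0.14, so that from 1 to 5 foundresses both families had a median of -0.12. The receptors of a library share its normalization and its tissue, so that these counts of directions are descriptions, and any pair of the 3 comparisons shares the libraries of 1 group. The summed level of the family was 24.5 CPM ± 3.33, 22.0 CPM ± 1.89 and 22.0 CPM ± 2.84 (SD) in the single-, five- and 10-foundress groups, where that of the odorant receptors was 555 CPM ± 292, 530 CPM ± 276 and 648 CPM ± 224 (SD).

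**Figure D5:**
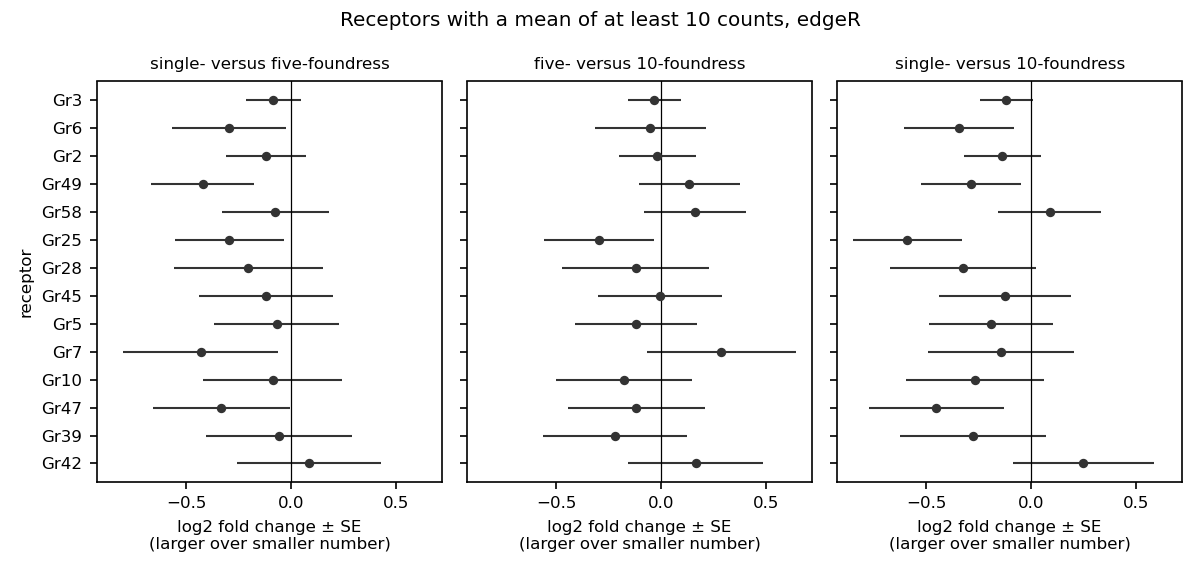
Log2 fold change of the 14 gustatory receptors with a mean of at least 10 counts in the 3 pairwise comparisons. Points are edgeR values and bars are 1 SE, derived from the F statistic of the test. Values below 0 are lower with the larger number of foundresses, the number below 0 is 13, 10 and 12 of 14, and 0 of the 14 passed an adjusted p of 0.05.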

How the data were processed

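The files that the authors deposited hold raw counts on each gene in 23 libraries. By the methods of the study and its processing notes, adapters were trimmed with cutadapt 1.8.3, reads were aligned to the Nasonia genome (Nvit 2.1) with TopHat2 2.0.14 and counted per gene with HTSeq 6.0.1 in union mode, in which a read on more than 1 gene is not counted. Whether strand was used in counting is not given in the sources used here. All columns were matched to a labelled sample. The libraries were grouped by the labelled foundress number, and replicates are pools of heads.

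CPM were computed with TMM library sizes in edgeR 4.0.16 (R 4.3.3) over 22 libraries, without single-foundress replicate 2. Genes with at least 1 read were tested with edgeR's quasi-likelihood test, foundress number as the only factor and Benjamini-Hochberg adjustment over 13599 genes. DESeq2 1.42.0, limma 3.58.1 (voom with quality weights), RLE factors, a filter on low counts, the earlier quasi-likelihood form, all 23 libraries, the groups compared alone and each library left out were alternatives. Fits were tested on simulated data. Correlations used log2(CPM + 0.1), 2-sided permutation tests with 100000 resamples and scipy 1.17.1. Their p-values were adjusted within each set of relations named above and not over all sets together, so those that passed near 0.05 depend on that split. The rule named the 10 receptors with the most reads, Gr2 and Gr3, those with the smallest or an unadjusted p below 0.05, those without reads and those outside the range in the left-out library. The members, lists and tests were chosen with earlier results of these data known. Limits and intervals cover counting error only, and p-values the spread between pools.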

Additional observations from a re-analysis of the deposited data

Results flagged for a closer look

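In 36 sets of values of single receptors within a group, 2 held a library that stood apart from the rest by Dixon's ratio of the gap to the range, where chance marks about 1 set in 20. Five-foundress replicate 10 had 4.67 CPM of Gr2 (201 counts) against 1.82 to 2.96 CPM in the other 6 libraries of its group, a ratio of 0.600. Single-foundress replicate 1 had 0.872 CPM of Gr45 (29 counts) against 0.224 to 0.488 CPM in the other 6, a ratio of 0.593. The cause was not tested.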

How the results depend on the processing

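In each alternative run 0 receptors passed an adjusted p of 0.05 in the 4 tests, or in the 3 pairwise ones for the groups compared alone, and the smallest adjusted p of a receptor by limma-voom was 0.318. Of all genes 0 passed in these fits, except for 39 from 1 to 10 foundresses and 77 overall by edgeR on 23 libraries, 3 from 1 to 10 by limma-voom and 1 both from 1 to 10 and overall by edgeR without single-foundress replicate 3. Leaving out each library in turn gave 0 to 1, 1 to 4, 1 to 2 and 1 to 2 receptors at the unadjusted p of 0.05 in the tests of 1 against 5, 5 against 10 and 1 against 10 foundresses and in the overall test, against 1.38% to 2.4%, 1.21% to 3.9%, 2.21% to 7.46% and 1.6% to 3.73% of all genes. Of these counts, 4 came from the test of 5 against 10 without five-foundress replicate 16. It was 1 in the first test and 2 in the overall test without single-foundress replicate 7 or five-foundress replicate 11. It was 2 in the test of 5 against 10 foundresses without single-foundress replicate 1, five-foundress replicate 11 or 10-foundress replicates 17, 18, 20 or 24, and 1 in that of 1 against 10 without single-foundress replicates 1, 3, 4 or 8 or 10-foundress replicates 20 or 24. That last count was 0 with the left-out library added. The filter on low counts tested 15 receptors, did not test Gr13 and called 0, 0, 1 and 0 of them at the unadjusted p, against 1.37%, 1.44%, 2.76% and 1.47% of all 11215 genes. Without each library in turn the log2 fold change of Gr13 from 5 to 10 foundresses was 0.94 to 1.30, and that of Gr25 from 1 to 10 was -0.76 to -0.41. The median r within the family was 0.10 to 0.26 without each library, 0.16 with Spearman's rho, 0.24 with all 23 libraries and 0.31 without TMM factors, while that of the odorant receptors was 0.86 to 0.89 without each library. The r between the sums of the families, 0.0666, was -0.0934 to 0.20 without each library. It was below 0 without single-foundress replicate 1 (-0.0934) and without 10-foundress replicate 17 (-0.0113), and it was -0.000578 when only the 3 receptors that averaged 50 or more counts were summed. The r of Gr3 with Or1 was 0.0255 on deviations from group means. Levels per kb of coding length were not run. By the methods of the study the set-up was balanced over 3 days. The labels do not give the day of a pool and the groups share no replicate number, so no term for day or pairing could be fitted. Depth limits the receptors below 10 counts, for which single reads set the values.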
